A study of Mus musculus with 2 samples.

Results

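The genes described here encode the complex that methylates lysine 79 of histone H3 (H3K79) and the complex that releases paused RNA polymerase II, 10 genes of the 16803 in the table. They were chosen by symbol, and each had a row: the methyltransferase Dot1l, its cofactors Mllt1, Mllt3, Mllt6 and Mllt10, the super elongation complex genes Aff1, Aff4, Ell and Cdk9, and the inhibitor Hexim1. RNA came from the line NE4C, mouse neural stem cells cloned from embryonic brain of animals without functional p53. One library came from a normal culture (control) and one from a culture treated with HTL, homocysteine thiolactone, a reactive cyclic form of homocysteine that attaches to lysines. Neither the dose nor the duration is given for the sequenced culture. The study's general culture methods keep the line in Eagle MEM with serum on poly-L-lysine. For protein modification they starve cells of serum before HTL is added. Whether either sequenced culture was starved is not stated, so such a difference could not be told apart from HTL. Since each condition was sequenced once, the differences lack any check against replicates, and what the intervals and tests cover is counting error. In such a bulk sample, fewer cells of a type and less RNA per cell cannot be told apart.

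DOT1L is the main H3K79 methyltransferase of mammals, and it places the mark over the bodies of transcribed genes. AF10 (Mllt10) and AF17 (Mllt6) bind DOT1L and raise its activity, while the YEATS proteins AF9 (Mllt3) and ENL (Mllt1) read acylated lysines and bind either DOT1L or the super elongation complex. In the latter, AFF scaffolds hold an ELL elongation factor together with P-TEFb, the kinase CDK9 with a cyclin T, which phosphorylates paused polymerase and its pausing factors. HEXIM proteins and the 7SK particle hold P-TEFb inactive. H3K79 is also the residue on which the study followed homocysteinylation, the attachment of homocysteine to a lysine. By mass spectrometry of HTL-treated NE4C cells, the study reported raised monomethylation of H3K79 and no significant change in its dimethylation.

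The libraries held 10350665 reads (control) and 9102076 reads (HTL treatment). Of the neural stem cell markers, Sox2 stood at 34.7 and 12.6 FPKM (fragments per kilobase of transcript, scaled to library size), Nes at 25.1 and 24.1 and Msi1 at 38.7 and 39.5, while Sox1 and Pax6 were below 2 FPKM in both. Of the 7 neural stem cell markers, 3 were called lower by the rule given below (Sox2, Vim and Sox1), where 7.98% of all genes tested were. Vim was not called under the other scalings, and neither Vim nor Sox1 was with FPKM + 1. Summed markers of other cells were low: 0.12 and 0.04 FPKM for the 2 astrocyte genes in the table, 0.75 and 0.47 for 2 microglia genes and 2.30 and 2.42 for 5 fibroblast genes. Those of 4 oligodendrocyte genes summed to 3.94 and 4.4 FPKM, mostly Mbp, and those of 5 neuron genes to 21.7 and 28.5, mostly Tubb3. The neuron genes did not move together: Tubb3 was higher at a log2 ratio of 0.60, Dcx (88 and 29 reads) was called lower at -1.4 but not with FPKM + 1 (-0.53), and the median of the 5 was -0.60. The part of these markers in the results below was not tested.

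The first comparison asked whether RNA of the methyltransferase complex genes and of the elongation complex genes differed in level between the libraries. RNA measures neither the protein complexes nor H3K79 methylation. Of the 5 genes of the H3K79 complex, 3 passed the test as lower after HTL (Dot1l, Mllt6 and Mllt10), and 3 of the 4 super elongation complex genes passed as higher (Aff1, Ell and Cdk9). All 5 log2 ratios of the H3K79 complex were below 0, with a median of -0.65, where 58.7% of all genes tested were below 0. The ratio is HTL treatment over control with reads scaled to library totals, and the median of all 13442 genes tested was -0.14. Each gene's reads were set against the library totals by an exact binomial test (two-sided), named the read test here, with 0.001 as the limit of the adjusted p. By it 8 of the 10 genes differed, 3 higher and 5 lower, where 38.6% of all genes tested did (14.5% higher and 24.1% lower). Each of the 10 genes had a mean of at least 100 reads, and among the 8528 genes with that depth 52.9% passed, 20.8% higher and 32.1% lower. A gene was called when it also had an absolute log2 ratio of at least 1, the cutoffs of the study. One of the 10 was called, Mllt6, which was lower, against 10.8% of all genes tested (2.81% higher and 7.98% lower). Mllt6 was not called under TMM (-0.92), median of ratios (-0.92) or upper quartile scaling (-0.96), nor with FPKM + 1 (-0.94). By the fold alone Mllt6 was again the only gene, where 17.0% of all genes tested passed (4.72% higher and 12.2% lower).

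Dot1l (gene ID 208266; NCBIM37 chromosome 10, 80217951 to 80258206, plus strand), the methyltransferase itself, gave 1778 control reads and 1247 reads after HTL. Its level was 29.8 FPKM (95% Poisson interval 28.5 to 31.3) and 23.8 FPKM (22.4 to 25.1), and these intervals do not overlap. The log2 ratio was -0.33 (exact 95% interval -0.43 to -0.22), which is 1.25-fold lower. Dot1l passed the read test, but it stood at percentile 38.8 of all genes tested, not far below the median gene.

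The cofactors AF17 and AF10 had the lowest ratios of the 10 genes. Mllt6 (gene ID 246198; chromosome 11, 97524728 to 97546777, plus strand) had 872 and 369 reads and levels of 11.4 and 5.50 FPKM. Its log2 ratio was -1.05 (-1.23 to -0.88), 2.08-fold lower, at percentile 11. Mllt10 (gene ID 17354; chromosome 2, 17976898 to 18134017, plus strand) fell from 1546 reads to 709 and from 29.8 to 15.5 FPKM. Its log2 ratio of -0.94 (-1.07 to -0.81), 1.92-fold lower, lay just short of the cutoff. Mllt10 exons overlap exons of Dnajc1 on the opposite strand, and the use of strand in the counting is not stated. In control cells Dot1l and Mllt10 had the same level per length within their intervals, and after HTL they did not.

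The YEATS readers rest on fewer reads than the other genes of the complex. Mllt1 (gene ID 64144; chromosome 17, 57032035 to 57074836, minus strand) gave 427 and 291 reads and a ratio of -0.37 on the log2 scale (-0.59 to -0.15). Mllt3 (gene ID 70122; chromosome 4, 87415829 to 87679268, minus strand) gave 141 and 79 reads and a ratio of -0.65 on the log2 scale (-1.07 to -0.24). Mllt3 was the least abundant of the 10 genes in both libraries, at 2.2 and 1.4 FPKM against 11.3 and 8.73 for Mllt1. Neither passed the read test: the adjusted p of the exact binomial test was 0.0019 for Mllt1 and 0.0028 for Mllt3. The 4 cofactors together summed to 54.8 FPKM in control and 31.1 FPKM after HTL.

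The super elongation complex showed the other direction in its kinase, its ELL subunit and an AFF scaffold. Aff1 (gene ID 17355; chromosome 5, 104121393 to 104284341, plus strand), the AF4 scaffold, had 844 and 1149 reads and levels of 9.65 and 14.9 FPKM. Its log2 ratio of 0.63 (0.50 to 0.76), 1.55-fold higher, was the highest of the 10 genes and stood at percentile 89. Ell (gene ID 13716; chromosome 8, 73063574 to 73116757, plus strand), which speeds elongation by RNA polymerase II, gave 389 and 466 reads, which is 1.36-fold higher, with a log2 ratio of 0.45 (0.25 to 0.64). Cdk9 (gene ID 107951; chromosome 2, 32561304 to 32568596, minus strand), the kinase of P-TEFb, gave 735 and 861 reads, which is 1.33-fold higher, with a log2 ratio of 0.41 (0.27 to 0.56). The 3 genes passed the read test and fell short of the fold cutoff. Cdk9 reads were estimated fractions in both libraries and its exons overlap a pair of annotated clone-named genes on the same strand, so its reads are uncertain.

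Aff4 (gene ID 93736; chromosome 11, 53164335 to 53235332, plus strand), the scaffold most often found in the complex, was the exception. It had 2997 and 2314 reads, the most of the 10 genes, with levels of 28.1 and 24.6 FPKM and a log2 ratio of -0.19 (-0.27 to -0.11). It passed the read test with library totals, but not under TMM, where the log2 ratio was -0.06 and the adjusted p of the exact binomial test was 0.221. Relative to the median gene its log2 ratio was -0.05, and Aff4 was the only 1 of the 10 genes whose interval held the median gene.

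Hexim1 (gene ID 192231; chromosome 11, 102977639 to 102981039, plus strand), a gene with 1 exon whose product inhibits P-TEFb, moved opposite to the kinase. It had 611 reads in control and 317 after HTL, with levels of 17.2 FPKM (15.9 to 18.7) and 10.2 FPKM (9.06 to 11.3). The log2 ratio was -0.76 (-0.96 to -0.56), 1.69-fold lower, and it passed the read test. The level intervals of the 2 libraries do not overlap.

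**Figure D1:**
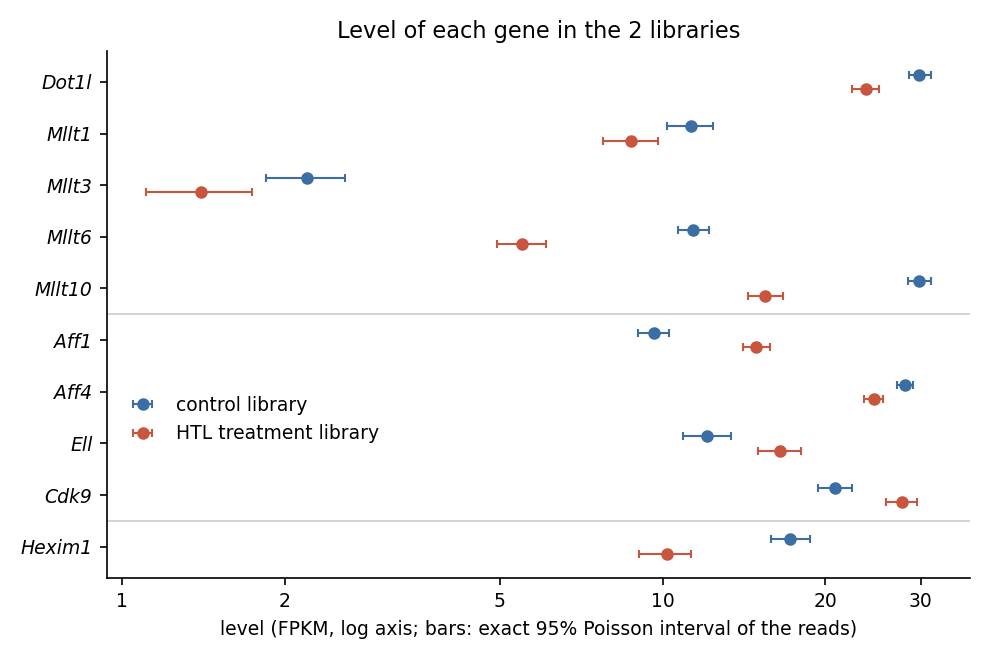
Level of each of the 10 genes in FPKM (log axis) in the control library (blue) and the HTL treatment library (red), with exact 95% Poisson intervals of the reads. The 5 genes of the H3K79 complex and Hexim1 lie further left after HTL, and Aff1, Ell and Cdk9 further right, as Cdk9 from 20.8 to 27.7 FPKM.

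The order of levels differed between the libraries. In control, Dot1l, Mllt10 and Aff4 led at 28.1 to 29.8 FPKM, and their intervals overlap from neighbour to neighbour. Cdk9 (20.8 FPKM) and Hexim1 (17.2 FPKM) followed, each apart from its neighbours. Ell, Mllt6, Mllt1 and Aff1 lay between 9.65 and 12.1 FPKM without a gap between neighbouring intervals, and Mllt3 was last. After HTL, Cdk9 led at 27.7 FPKM, apart from Aff4 at 24.6, while Dot1l at 23.8 overlapped Aff4. Ell, Mllt10 and Aff1 then formed a group at 14.9 to 16.5 FPKM, above Hexim1 and Mllt1, which overlap, and above Mllt6 and Mllt3. In the order of log2 ratios, the only gap between neighbouring intervals was between Cdk9 at 0.41 and Aff4 at -0.19.

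**Figure D2:**
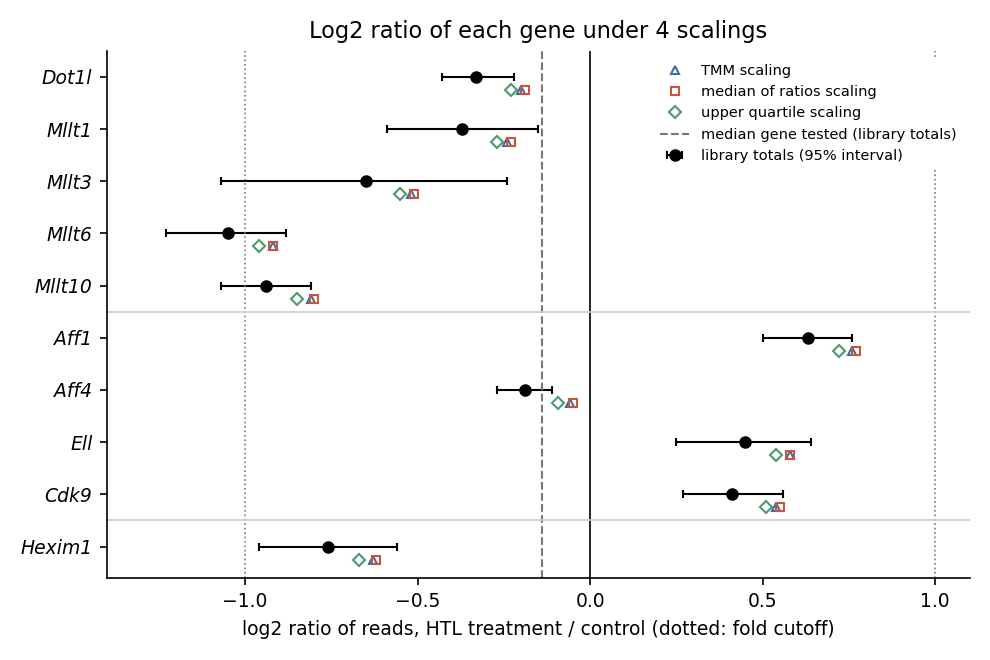
Log2 ratio of reads, HTL treatment over control, for each gene with library totals (black, exact 95% interval) and under 3 other scalings (open symbols). The dashed line is the median gene tested (-0.14) and the dotted lines mark the fold cutoff, past which only Mllt6 lies and only with library totals (-1.05).

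Promoters are shown for the genes with a single RefSeq start among the 3 highest and the 3 lowest ratios, so that Hexim1 and Mllt6 can be set against Cdk9 and Ell. Each is the 250 bases before the start on GRCm38.p6, which is not the build of the gene spans above, read 5′ to 3′ on the strand of the gene. Capitals mark matches, on either strand, to the motifs searched: the TATA box TATAAA, the CCAAT box, the GC box core GGGCGG, the E-box CACGTG, the cyclic AMP element TGACGTCA, the ATF4-type element TGATGNAA and the palindromic NRF1 site. The windows are chr11:103116075-103116324 (plus) for Hexim1, chr11:97663162-97663411 (plus) for Mllt6, chr2:32712785-32713034 (minus) for Cdk9 and chr8:70539425-70539674 (plus) for Ell.
Hexim1: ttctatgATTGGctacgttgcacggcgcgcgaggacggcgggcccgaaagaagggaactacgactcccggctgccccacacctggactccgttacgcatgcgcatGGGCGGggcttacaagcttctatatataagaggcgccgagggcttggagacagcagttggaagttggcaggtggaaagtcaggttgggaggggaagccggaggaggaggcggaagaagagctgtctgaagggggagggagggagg
Mllt6: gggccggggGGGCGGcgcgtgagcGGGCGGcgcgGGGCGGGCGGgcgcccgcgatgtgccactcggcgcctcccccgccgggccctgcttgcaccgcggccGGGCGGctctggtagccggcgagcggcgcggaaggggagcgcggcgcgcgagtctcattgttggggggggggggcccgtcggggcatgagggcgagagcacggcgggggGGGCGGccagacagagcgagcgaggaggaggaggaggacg
Cdk9: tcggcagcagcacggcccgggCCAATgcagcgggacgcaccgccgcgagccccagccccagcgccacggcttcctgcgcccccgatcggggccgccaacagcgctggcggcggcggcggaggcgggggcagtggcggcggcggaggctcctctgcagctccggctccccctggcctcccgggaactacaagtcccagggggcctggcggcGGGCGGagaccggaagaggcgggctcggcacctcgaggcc
Ell: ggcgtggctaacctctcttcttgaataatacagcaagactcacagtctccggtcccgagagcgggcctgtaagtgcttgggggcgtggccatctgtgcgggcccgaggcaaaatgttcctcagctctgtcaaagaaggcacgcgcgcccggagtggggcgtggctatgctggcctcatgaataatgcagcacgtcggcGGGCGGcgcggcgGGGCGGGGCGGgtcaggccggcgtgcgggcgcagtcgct

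All 4 windows hold GGGCGG, with 1 match for Hexim1 and for Cdk9, 6 for Mllt6 and 3 for Ell. The CCAAT box occurs once in Hexim1 and once in Cdk9, so it is found in a gene that was lower and in a gene that was higher. Over the 14 windows of all 10 genes, GGGCGG was found for 9 genes (all but Aff4) and CCAAT for 5. By window, 10 of the 14 hold GGGCGG and 6 hold CCAAT, beside 32.7% and 33.8% of all 32851 windows. The E-box was found for Aff4 alone (6.02% of all windows). Exact matches to TATAAA, the cyclic AMP element, the ATF4-type element and the NRF1 site were found in none of the 14 windows (12.4%, 1.55%, 3.45% and 0.782% of all windows), and near matches were not searched. The GC content of the 14 windows had a median of 73.4% against 52.4% over all windows, and the observed over expected CpG ratio 0.871 against 0.373. These matches describe letters only.

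The second comparison asked how the balance of partners and paralogs shifted within a library, which does not depend on how the libraries are scaled. Of 8 pairs, 6 had an exact 95% interval of the log2 odds ratio that excluded 0. No p was computed for the pairs, and no share was computed for other pairs of genes, so the count says nothing particular to these. The P-TEFb inhibitor lost ground to its kinase, whose reads are uncertain as given above. Hexim1 made up 45.4% of the reads of Hexim1 and Cdk9 together in control and 26.9% after HTL, a log2 difference of -1.17 (-1.42 to -0.93). Per length, Cdk9 stood at 1.21 times the level of Hexim1 in control and at 2.73 times after HTL. Hexim2, the paralog of Hexim1, had 46 and 50 reads, with a log2 ratio of 0.30 (-0.30 to 0.92) that did not pass the read test. Hexim1 against Hexim2 shifted by -1.07 (-1.71 to -0.42).

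Among scaffolds, Aff1 rose from 22.0% to 33.2% of the reads of Aff1 and Aff4, a log2 difference of 0.82 (0.67 to 0.97). The level of Aff4 per length was 2.91 times that of Aff1 in control and 1.65 times after HTL. Ell gained on its paralog Ell2, which had 808 and 545 reads: the log2 difference was 0.83 (0.57 to 1.08), and the ratio of their FPKM values went from 0.572 to 1.02. Among the cyclins that partner CDK9, Ccnt2 (1254 and 591 reads) lost ground to Ccnt1 (771 and 732 reads) by -1.01 (-1.22 to -0.80). Ccnt2 and Ccnt1 stood at the same level in control, 34.2 FPKM each, and at 18.3 and 36.9 FPKM after HTL. Ccnt1 exons overlap 9330020H09Rik on the opposite strand.

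In the H3K79 complex, Mllt10 fell relative to Dot1l by 0.61 on the log2 scale (interval of the difference -0.78 to -0.45). The ratio of Mllt10 to Dot1l in FPKM was 0.999 in control and 0.651 after HTL. The paralogs of each cofactor class did not separate at this depth. Mllt6 against Mllt10 had a log2 difference of -0.12 (-0.34 to 0.11), and Mllt3 against Mllt1 one of -0.28 (-0.76 to 0.18).

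**Figure D3:**
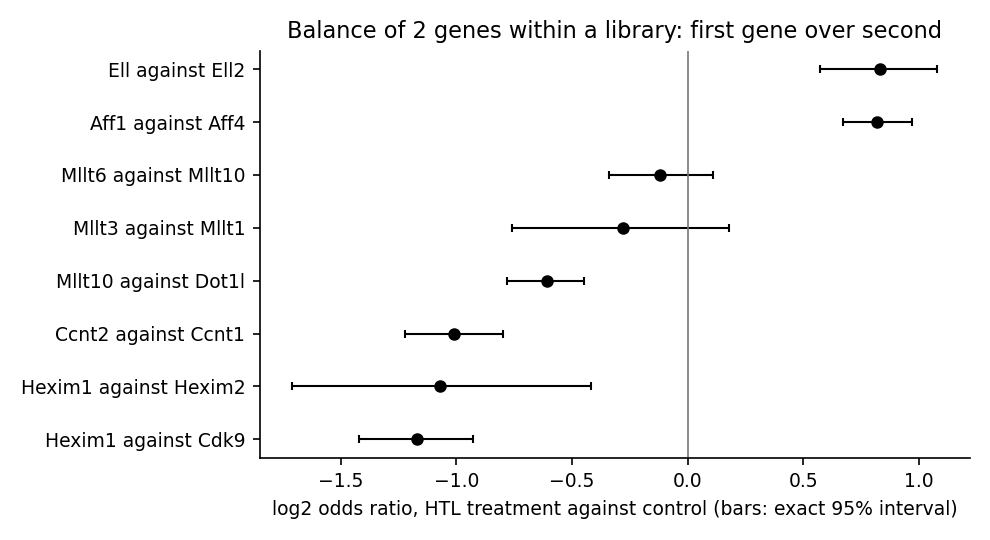
Log2 odds ratio of the reads of a pair of genes, HTL treatment against control, with exact 95% intervals. Values below 0 mean that the first gene lost ground to the second after HTL, as for Hexim1 against Cdk9 (-1.17), and the intervals of Mllt6 against Mllt10 and of Mllt3 against Mllt1 cross 0.

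Transcript length moved with the ratios over the whole table, and all 10 genes were longer than the median gene tested. With the genes tested sorted into 10 bins by length, the bin of the shortest transcripts had a median of 0.14 and that of the longest one of -0.38. The difference of Dot1l (5694 bases) from the median of its bin was -0.046 on the log2 scale, and that of Aff4 (10165 bases) was 0.19. For the other H3K79 genes the difference was -0.20 (Mllt1), -0.37 (Mllt3), -0.66 (Mllt10) and -0.68 (Mllt6), and for Hexim1 it was -0.59. Aff1, among the longest transcripts (8335 bases), differed from its bin by 1.01, Ell by 0.62 and Cdk9 by 0.58. The part of length in these ratios was not tested beyond these values.

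**Figure D4:**
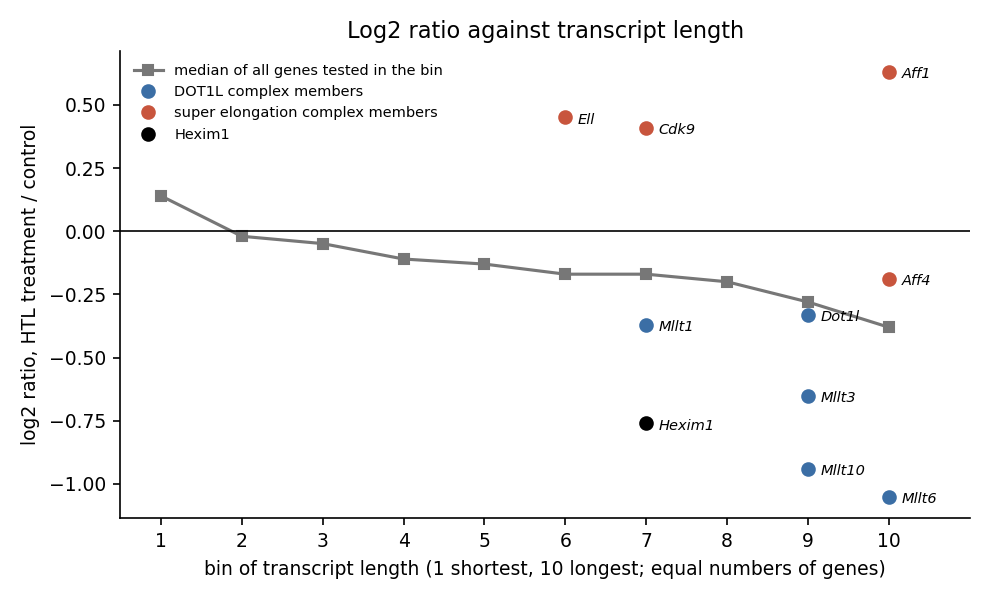
Log2 ratio of each gene against its bin of transcript length, with the median of all genes tested in each bin (grey squares). Aff1, Ell, Cdk9 and Aff4 lie above the grey line, Dot1l lies close to it (-0.046), and Mllt6, Mllt10, Mllt3, Mllt1 and Hexim1 lie below it.

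The rest of the pathway was described with 10 lists of 61 genes, of which 59 had a row and 57 were tested. Of these 57, 8 were higher and 23 lower by the read test, beside 14.5% and 24.1% of all genes tested. With a mean of at least 50 reads required, 53 remained, 8 higher and 23 lower, beside 18.9% and 30.4% of all genes at that depth. The median of the 57 was -0.17 beside -0.14 for all genes tested. With library totals 3 of the 57 were called, Larp7, Meis1 and Mef2c, all lower, beside 7.98% of all genes tested called lower and 2.81% higher. Under TMM 13 of the 57 passed the read test as higher and 18 as lower, beside 20.1% and 18.5% of all genes tested. With a coefficient of variation of 0.1 between cultures assumed in edgeR's exact test, 2 passed as higher and 5 as lower, beside 2.83% and 7.26% of all genes tested. Under other scalings there were calls in the other direction: Eaf1 was called higher at 1.08 with TMM, at 1.08 with the median of ratios and at 1.04 with the upper quartile, and H3f3b at 1.02 with TMM and at 1.03 with the median of ratios. Of the other super elongation complex and P-TEFb genes, 1 of 8 was higher and 3 were lower. Eaf1, which binds ELL proteins, had 878 and 1487 reads and the highest log2 ratio of all 57 genes, 0.95 (0.82 to 1.07). Ccnt2 was the lowest at -0.90 (-1.04 to -0.76), and Aff3 and Ell2 were lower at -0.61 and -0.38. Ell2 did not pass the read test under TMM, where its log2 ratio was -0.25.

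In the 7SK particle, Larp7, which binds and stabilises 7SK RNA, had 4347 reads in control and 1747 after HTL, and its level went from 197 to 89.7 FPKM. The log2 ratio was -1.13 (-1.21 to -1.05), and Larp7 was no longer called under TMM or under median of ratios scaling (-0.99). Mepce, the capping enzyme of 7SK, had a log2 ratio of 0.06 (-0.13 to 0.26) and did not pass. Thus both Hexim1 and Larp7, which hold P-TEFb in its inactive form, were lower, while Hexim2 and Mepce gave no difference that passed.

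The pausing factors went both ways, with 2 of 6 higher and 2 lower (3 and 1 under TMM). Of all genes tested, 14.5% were higher and 24.1% lower (20.1% and 18.5% under TMM). Among the 6, Supt4a, the small subunit of DSIF, was highest at 0.85 (0.66 to 1.04), and Nelfcd, a NELF subunit, lowest at -0.61 (-0.78 to -0.43). Of the PAF1 complex, which travels with elongating polymerase, 1 of 6 was higher (Ctr9, 0.39) and 3 lower, beside the same 14.5% and 24.1%. Rtf1 was the lowest of the 6 at -0.58 (-0.74 to -0.43). Under TMM only Rtf1 of the 6 passed as lower. H2B ubiquitination stimulates DOT1L, and of its 9 genes 1 was higher and 2 were lower, beside 14.5% and 24.1% of all genes tested. Lower were the ligase subunit Rnf40 at -0.70 (-0.83 to -0.57) and the conjugating enzyme Ube2b at -0.98 (-1.21 to -0.76). The deubiquitinase Usp22 was higher at 0.33 (0.22 to 0.43). Ube2a, a paralog of Ube2b, did not pass at 0.48 with library totals but did under each of the 3 other scalings, at 0.57 to 0.61. Rnf20, the partner of Rnf40, had a log2 ratio of -0.23 (-0.37 to -0.08) and did not pass. Of 11 other polymerase II kinases and elongation factors, 2 were lower and none higher with library totals, beside 24.1% and 14.5% of all genes tested. Under TMM 3 passed as higher (Tcea1, Supt6 and Ssrp1) and 2 as lower, beside 20.1% and 18.5%. With library totals Cdk7 was the lowest of the 11 at -0.69 (-0.86 to -0.52) and Mnat1 the highest at 0.22, which did not pass. Exons of Nelfcd, Cdk7, Supt6 and Ssrp1 overlap other genes on the opposite strand. Those of Tcea1 overlap Lypla1 on the same strand, and Tcea1 reads were estimated fractions in both libraries, so they are uncertain.

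Of 3 other reported DOT1L partners, 1 was higher and 2 were lower by the read test (1 and 1 under TMM). The shares of all genes tested were 14.5% and 24.1% (20.1% and 18.5% under TMM). Trrap was the lowest of the 3 at -0.39 (-0.46 to -0.31), close to the median of its length bin (-0.38). Ctnnb1, whose exons overlap Ulk4 on the opposite strand, was higher at 0.12 (0.08 to 0.17). Of the MLL1 group, 4 of 5 genes were lower by the read test. Of all genes tested 24.1% were, and of those with a mean of at least 50 reads 30.4%. The median of the 5 was -0.53. At an assumed coefficient of variation of 0.1 only Yeats2 of the 5 passed. Kmt2a, which encodes MLL1 and whose leukaemia fusions recruit DOT1L, had a log2 ratio of -0.57 (-0.66 to -0.47). Yeats2, another YEATS reader, had the lowest of the group at -0.91 (-1.07 to -0.75), and Men1, encoding menin, the highest at 0.05 (-0.06 to 0.17), which did not pass.

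**Figure D5:**
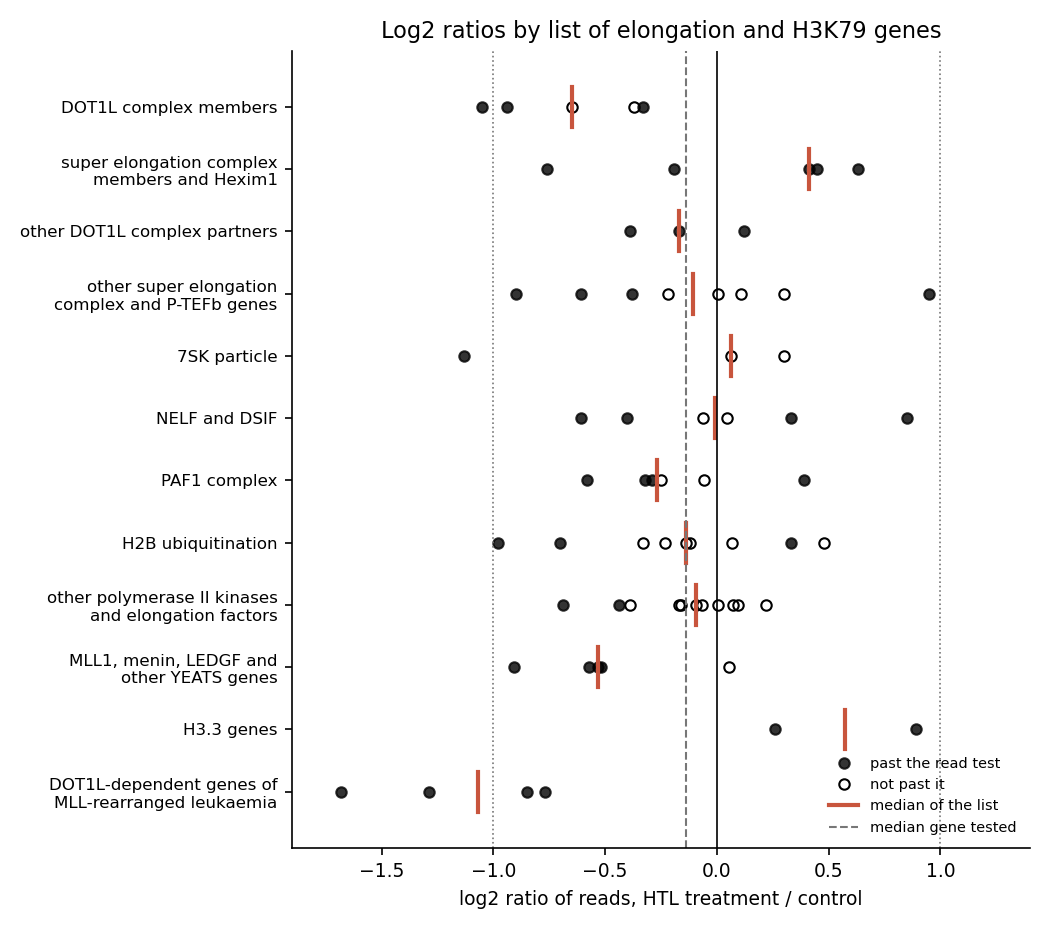
Log2 ratio of every tested gene of the 10 genes described and of the 10 other lists, filled where the read test was passed, with the median of each list (red bar) and of all genes tested (dashed, -0.14). The H3.3 genes lie above 0 and the 4 tested DOT1L-dependent leukaemia genes below it, with medians of 0.58 and -1.07.

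Of the genes for histone H3, only H3f3a and H3f3b were on the lists, and other H3 genes were not examined. H3f3a and H3f3b encode the same replacement histone H3.3, so their reads may be split between them and near copies. H3f3b went from 4716 to 7709 reads, with a log2 ratio of 0.89 (0.84 to 0.95). H3f3a went from 6586 to 6934 reads, with a log2 ratio of 0.26 (0.21 to 0.31), and its exons overlap other genes on the opposite strand. Both were higher by the read test, as were 14.5% of all genes tested and 20.8% of those with a mean of at least 100 reads. At an assumed coefficient of variation of 0.1 only H3f3b passed.

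Of 8 genes known to depend on DOT1L in MLL-rearranged leukaemia, 6 had a row and 4 were tested. All 4 were lower by the read test, as were 24.1% of all genes tested and 30.4% of those with a mean of at least 50 reads. Mef2c went from 103 to 28 reads, with a log2 ratio of -1.68 (-2.35 to -1.08). Meis1 went from 104 to 37 reads, with a log2 ratio of -1.29 (-1.89 to -0.75). Meis1 exons overlap Gm16140 on the opposite strand. Pbx3 went from 890 to 434 reads, with a log2 ratio of -0.85 (-1.02 to -0.68). Jmjd1c went from 4229 to 2181 reads, with a log2 ratio of -0.77 (-0.85 to -0.69). Against the median of its length bin, Mef2c differed by -1.30, Meis1 by -1.13, Pbx3 by -0.72 and Jmjd1c by -0.39. Hoxa7 and Hoxa10 had at most 2 reads in either library, so no difference was detectable at this depth. At an assumed coefficient of variation of 0.1 only Mef2c of the 4 passed. With FPKM + 1 neither Mef2c (-0.79) nor Meis1 (-0.84) reached the fold cutoff. Whether these genes depend on DOT1L in NE4C cells was not measured.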

How the data were processed

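Total RNA of NE4C cells was sequenced by BGISEQ protocols as 1 control library and 1 HTL treatment library, grouped by their titles. In the study's methods, mapping to mouse genome and gene sequences was followed by quantification with RSEM. The submitters' processing notes name mm9 (NCBIM37), while mapper, versions, annotation and use of strand are not given in the sources used here. The deposited table holds estimated counts per gene, not normalized, of which 21.8% (control) and 20.2% (HTL treatment) were fractional because RSEM splits reads between similar genes. The deposited FPKM values take transcript length and library size into account, and none was below 0.01. The table's columns of log2 ratio, p-value and FDR are the authors' comparison and were not used.

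Counts were first rounded to whole numbers. The 13442 genes whose summed reads reached 10 (3361 were left out) were compared by a two-sided exact binomial test against library totals with Benjamini-Hochberg adjustment (scipy 1.17.1). For log2 ratios 0.5 read, scaled to the totals, was added. Intervals of ratios are Clopper-Pearson, of levels Poisson and of pairs conditional odds ratios. Molecular identifiers are not mentioned in the sources used here, and reads without them are not independent molecules. Tests and intervals nevertheless treat each read as 1 independent count. The test compares these 2 libraries, not the conditions, and covers counting error only. The test was checked on simulated reads that held counting error alone, so the check does not cover variation between cultures. Neither DESeq2 nor the quasi-likelihood test of edgeR could be fitted with 1 library per condition. Alternatives used scalings of edgeR 4.0.16 and DESeq2 1.42.0, other filters, added reads and cutoffs, FPKM + 1, and the exact test of edgeR under an assumed coefficient of variation.

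The genes, lists, pairs and motifs were chosen with earlier results of these data known, and some genes are not reported here. Named are the 10 genes, both genes of each pair, the H3.3 genes and, of each other list, the genes with the highest and the lowest ratio among those with a mean of at least 50 reads. Aff3, Rnf20, Rnf40, Usp22, Kmt2a, Meis1, Pbx3, Hoxa7, Hoxa10, Supt16, Ssrp1, Supt5, Supt6, Tcea1 and the markers Nes, Msi1, Vim and Sox1 were named after their values were seen. Gene spans and overlapping exons are from GENCODE M1 on NCBIM37, and promoter windows from RefSeq on GRCm38.p6, in which all 10 genes matched by gene ID.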

Additional observations from a re-analysis of the deposited data

How the results depend on the processing

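No paired analysis was possible because control and HTL treatment each had a single library, so leaving out a library was not possible either. The comparison without a fold cutoff and the alternatives for genes outside the 10 were added after the data were seen. Scaling by TMM raised log2 ratios by 0.13, scaling by the median of ratios by 0.14 and scaling by the upper quartile by 0.093. The 1450 calls over all genes (378 higher, 1072 lower) became 552 higher and 800 lower, 559 and 788, and 498 and 860. Ube2a, Ssrp1, Supt5, Supt6 and Tcea1 passed the read test as higher only under these scalings. Under each of them, and with FPKM + 1, none of the 10 genes was called (0 against 1), because Mllt6 moved inside the fold cutoff (-0.92 with TMM), and Aff4 no longer passed the read test under the 3 scalings. All 10 kept the sign of their log2 ratio under each alternative run. Over all genes FPKM + 1 gave 816 calls, the adjusted p alone 5195 (8 of the 10 genes), and the fold alone 2280. With a biological coefficient of variation assumed in edgeR's exact test, 0.1 left 2 of the 8 genes past the test without a fold cutoff (Mllt6 and Mllt10, both lower), 0.2 left 0 and 0.4 left 0. The calls over all genes were 1127 at 0.1 (with 1 of the 10 genes, Mllt6), 120 at 0.2 and 6 at 0.4 (with 0 of the 10 genes at either). Of the 57 genes of the other lists, 8 passed the test without a fold cutoff as higher and 23 as lower, against 2 and 5 at 0.1 and 0 at 0.2 and at 0.4. These libraries cannot measure that variation, and depth limits Mllt3, Hexim2, Mef2c and Meis1, which had at most 141 reads in a library. Nes, which did not pass the read test, changed sign from -0.059 to 0.071 with TMM, 0.077 with the median of ratios and 0.034 with the upper quartile.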

Other observations

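The conjugating enzymes for H2B ubiquitination, Ube2a and Ube2b, encode closely related proteins and stood apart in these libraries. Ube2b had 530 reads in control and 236 after HTL, and its level went from 23.9 to 12.1 FPKM. Ube2a was at 155 and 190 reads and at 8.61 and 12 FPKM, and its log2 ratio of 0.48 (0.17 to 0.79) did not pass the read test with library totals. The pair was chosen after its values were seen, and the difference between the genes was not tested. Of the FACT subunits, which handle nucleosomes in front of the polymerase, Supt16 had a log2 ratio of -0.44 (-0.50 to -0.38) and passed, while Ssrp1 had one of 0.0068 (-0.04 to 0.06) and did not with library totals but did under the 3 other scalings, at 0.10 to 0.14. Both exon sets overlap another gene on the opposite strand.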
